A study of Mus musculus with 45 samples.

Results

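The 9 genes described here, Glul, Axin2, Lgr5, Rnf43, Znrf3, Tbx3, Lect2, Rhbg and Oat, are known targets or regulators of WNT signalling in hepatocytes around the central vein. They were taken as a list of names, with earlier results of these data known, from the 21631 protein-coding genes of the autosomes and chromosome X. Binding of the clock repressor REV-ERBα was read at each of the 9. A site is a peak whose summit, the position of highest signal, lay inside the annotated span of a gene or within 50 kb of it. All 9 genes had at least 1 site at zeitgeber time 10 (ZT10, hour 10 of the light-dark cycle), with 40 sites in total, where 70.5% of all protein-coding genes had one. None of the 9 had a site at ZT22, where 0.157% of all genes did.

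The data come from chromatin immunoprecipitation with sequencing (ChIP-seq) of whole mouse liver. The mice were homozygous for REV-ERBα with a 3HA epitope tag at its own locus (REV-ERBa3HA/3HA) and had received no AAV vector, and the tagged protein was pulled down with anti-HA beads. There were 4 samples at ZT10 and 4 at ZT22, which the authors pooled into 1 peak list per time, so no value has a spread between samples and the times are compared without a p-value. Age and whether samples came from separate animals are not given in the labels. The other 37 of the 45 samples were not analysed here. Whole liver was used, so binding in pericentral hepatocytes and binding in other hepatocytes or other cells cannot be told apart, and peak lists hold no expression with which to check the tissue by its markers.

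The liver lobule is divided into zones between the portal tract, where blood enters, and the central vein, where it leaves. Endothelial cells of the central vein secrete WNT and R-spondin proteins, which stabilise β-catenin in the nearest hepatocytes, and β-catenin with TCF/LEF factors then drives pericentral genes. REV-ERBα binds DNA at AGGTCA half-sites and recruits the NCOR1 and HDAC3 corepressors, and its protein is abundant near ZT10 and scarce near ZT22.

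The ZT10 list held 27929 peaks and the ZT22 list 36. The value of a peak is its fold, the ratio of signal at the summit to the local background, as given in the authors' deposited lists. No listed peak had a fold below 4. The number of fragments at a summit follows from its fold and −log10 p together, and it gives each fold a 95% interval that covers counting error only. The 40 sites held 86 to 445 fragments (median 169.5).

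Promoter sequences from RefSeq (GRCm38.p6, the mm10 coordinates) were at hand for 5 of the 9 genes, Glul, Axin2, Rnf43, Lect2 and Oat, in 6 windows running from 250 bases before to 50 after a transcription start. A ZT10 peak overlapped all 6 windows, against 38.4% of the 21045 windows of protein-coding genes. The summit itself lay within the window only at Glul, against 11.1% of all windows. The 250 bases before the start are shown for Glul, where a half-site was found, for Lect2, where a TCF/LEF sequence was found, and for Axin2, the widely used WNT reporter gene, where neither was. Capitals mark TAGGTCA in Glul and, in Lect2, ATCAAAG, which is CTTTGAT read on the other strand. All run 5′ to 3′ along the gene.

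Glul (chr1:153899679-153899928, plus strand): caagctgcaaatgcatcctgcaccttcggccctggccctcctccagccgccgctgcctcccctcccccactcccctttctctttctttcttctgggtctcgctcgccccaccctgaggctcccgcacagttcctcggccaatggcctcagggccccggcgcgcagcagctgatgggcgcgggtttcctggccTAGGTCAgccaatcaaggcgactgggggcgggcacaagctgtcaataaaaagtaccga
Lect2 (chr13:56548539-56548788, minus strand): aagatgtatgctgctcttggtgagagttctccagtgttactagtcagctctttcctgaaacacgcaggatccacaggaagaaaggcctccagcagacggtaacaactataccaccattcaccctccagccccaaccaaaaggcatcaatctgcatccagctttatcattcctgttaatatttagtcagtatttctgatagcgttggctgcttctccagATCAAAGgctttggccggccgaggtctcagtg
Axin2 (chr11:108920099-108920348, plus strand): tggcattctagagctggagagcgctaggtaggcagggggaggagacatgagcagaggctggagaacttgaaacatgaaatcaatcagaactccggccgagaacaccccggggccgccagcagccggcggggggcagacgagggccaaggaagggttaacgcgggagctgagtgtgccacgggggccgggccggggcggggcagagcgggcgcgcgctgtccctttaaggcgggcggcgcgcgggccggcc

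The motif searches covered both strands of each window of 300 bases. The half-site is AGGTCA, and its extended form, which contains it, has a thymine in front, as capitalised in Glul above. The ROR response element core is the extended form with 2 adenines and any base before it, and RevDR2 is 2 half-sites in the same direction with 2 bases between them. The TCF/LEF sequence is the one given for Lect2 above, and its variant ends in adenine in place of thymine. The half-site was present in 14.6% of all windows, the extended form in 2.35%, the TCF/LEF sequence in 3.25% and its variant in 4.55%, while the response element core was in 0.157% and RevDR2 in none of the 21045. In Glul the extended half-site began 58 bases before the start. In Lect2 the TCF/LEF sequence began 32 bases before the start. None of the motifs was found in the windows of Axin2, Rnf43 (both starts) or Oat. The half-site was in 12.8% of the windows that a ZT10 peak overlapped and in 15.8% of the others.

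Of the signalling genes, the receptor gene and the 2 ligase genes act at the same step. Lgr5 encodes a receptor for R-spondins, and Rnf43 and Znrf3 encode membrane ubiquitin ligases that remove WNT receptors from the cell surface and are themselves held in check by R-spondin. Znrf3 had 13 sites, more than any other of the 9, and the strongest of all 40. That peak lay inside Znrf3 at chr11:5420838-5427755, with its summit 22545 bp from the higher-coordinate end of the gene and a fold of 20.6 (95% interval 18.8 to 22.6). It ranked 1178 of the 27929 ZT10 peaks. A further 6 sites inside Znrf3 had folds of 12, 4.60, 6.72, 4.14, 9.57 and 7.08. The last of these lay 792 bp within the higher-coordinate end of the gene, and sites with folds of 4.06 and 4.24 lay 326 and 881 bp beyond that end. Farther out on that side, sites at 7323, 25503, 40849 and 47520 bp had folds of 10.7, 8.65, 8.92 and 6.07, and the last 2 were nearer to Xbp1, which encodes a factor of the unfolded protein response. No site lay within 50 kb of Znrf3 on its lower-coordinate side, where Kremen1 is the neighbouring gene.

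Rnf43 had 5 sites, 4 of them inside the gene. A pair of broad peaks stood out, at chr11:87686492-87693947 with a fold of 17.3 (15.6 to 19.1) and at chr11:87697034-87705810 with a fold of 17.2 (15.5 to 19.1). Their widths of 7456 and 8777 bp compare with a median of 1679 bp over the ZT10 list. The second covers an internal start of Rnf43, with its summit 2578 bp past that start and inside the overlapping lncRNA gene 1110028F11Rik. At the first annotated start the fold was 5.13, over a higher local background of 5.82, with the summit 166 bp past the start. The last 2 sites had folds of 7.54, inside the gene, and 7.18, 1467 bp beyond its end and nearer to Supt4a.

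Lgr5 had 2 sites, both inside the gene and both near its higher-coordinate end. The stronger, at chr10:115585703-115587834, had its summit 1061 bp within that end and a fold of 13.5 (12.03 to 15.1). The other lay 6340 bp within it with a fold of 6.21, also inside the span of A930009A15Rik. The rest of the Lgr5 span of 137467 bp and both flanks held no site, which gave Lgr5 the lowest number of sites per 100 kb, 0.842. Starts of Lgr5, Znrf3, Tbx3 and Rhbg are not in the promoter table, so positions at these genes are given from an end of the span.

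Axin2 encodes a scaffold of the complex that destroys β-catenin and is induced by WNT signalling as negative feedback. It had 3 sites with folds of 9.29, 16.5 and 12.5. The strongest, at chr11:108919743-108925792, was 6050 bp wide and covered the start used for the sequence above, with its summit 612 bp past it. That start lies inside the annotated span. The peak did not reach the lower-coordinate end of the span, which was 3133 bp from the summit. The site of 12.5 lay inside the gene 16126 bp past the start, and that of 9.29 lay 23048 bp before it, inside the lncRNA gene Gm46298. All 3 were above the ZT10 list's median fold of 6.81, which was also so for the single site of Tbx3. That gene encodes a T-box transcription factor acting downstream of β-catenin, and its peak was 8407 bp wide, at chr5:119668607-119677013, with the summit 306 bp within the lower-coordinate end. Its fold was 10.5 (9.18 to 11.9), and the lncRNA gene Tbx3os1 overlaps it.

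**Figure D1:**
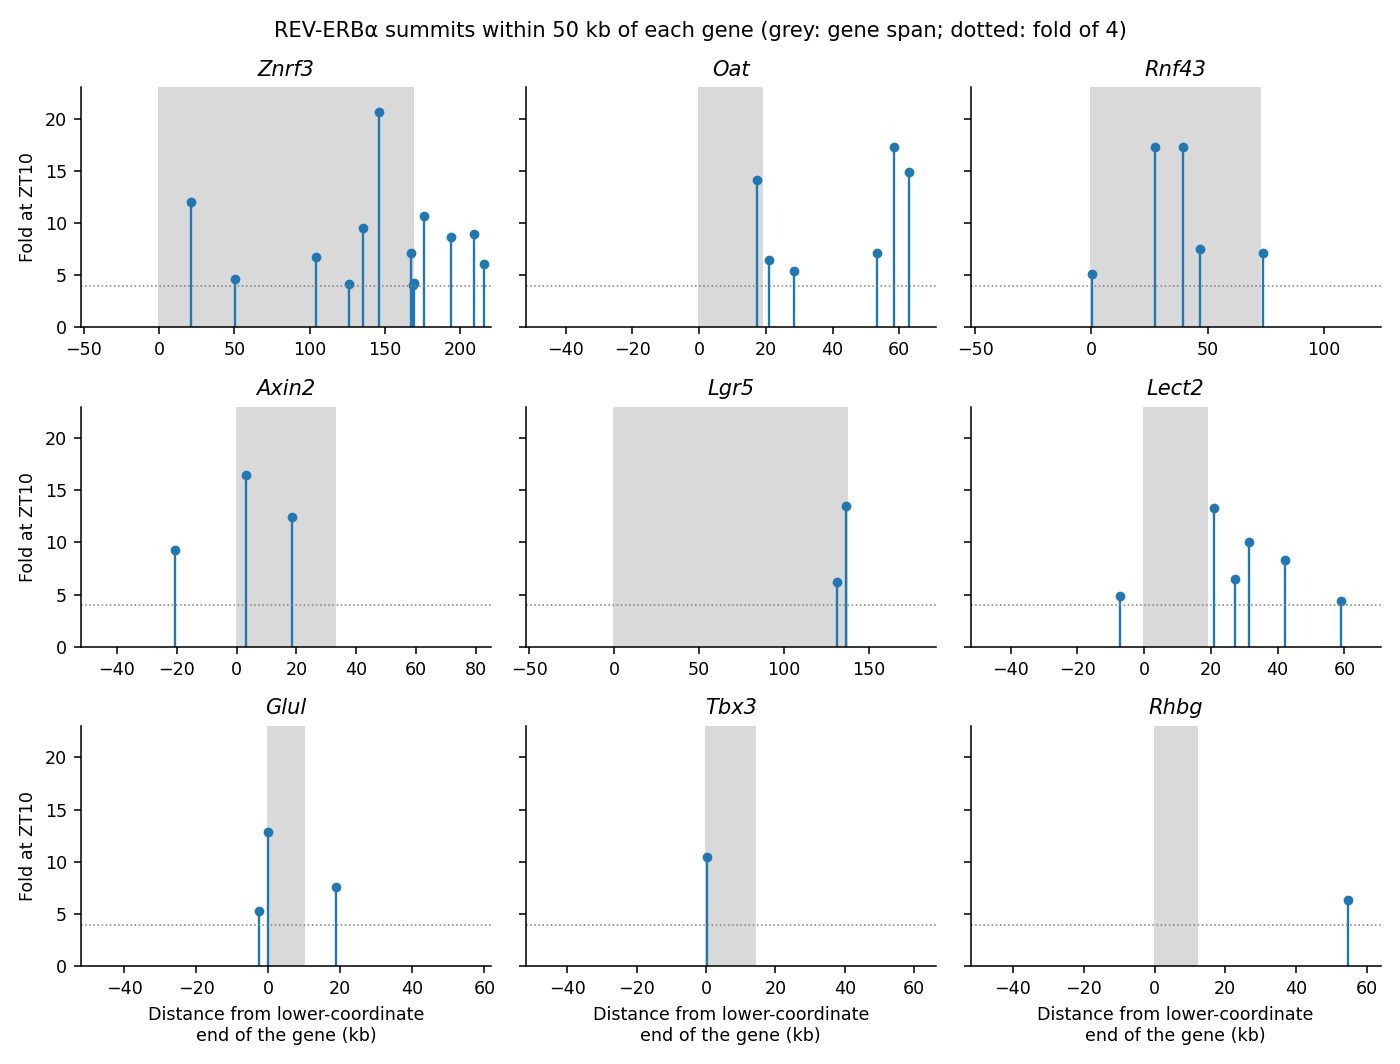
Fold of each ZT10 summit (vertical axis) against its distance in kb from the lower-coordinate end of the gene, for the 9 genes ordered by strongest summit; grey bands are gene spans, the dotted line is a fold of 4, and horizontal scales differ. Znrf3 carries 13 sites and Tbx3 and Rhbg carry 1 each, and the sites of Lect2 lie mostly to one side of the gene.

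Among the metabolic genes, Glul, Oat and Rhbg act in nitrogen handling. Glul encodes glutamine synthetase, which captures ammonia in the last hepatocytes before the central vein. Its strongest site, at chr1:153898337-153902393, had its summit 47 bp past the start and a fold of 12.8 (11.4 to 14.4), in the promoter whose sequence is shown above and within the span of the miRNA gene Mir8114. Of the other 2 sites, one lay 2568 bp before the start with a fold of 5.29, and one lay 9098 bp beyond the end of the gene with a fold of 7.64.

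Oat encodes ornithine aminotransferase, which links ornithine to glutamate. It had 6 sites. A peak of 6735 bp at chr7:132570341-132577075 covered its promoter, with the summit 1653 bp past the start and a fold of 14.1 (12.6 to 15.8). Before the start, sites at 2009 and 9480 bp had folds of 6.49 and 5.43. The remaining 3, at 34263, 39391 and 44052 bp before the start, had folds of 7.08, 17.3 and 14.8 and lay inside the neighbouring gene Lhpp, which encodes a phosphatase. The strongest summit within reach of Oat was thus in another gene, and with the nearest gene only Oat had a strongest fold of 14.1.

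Rhbg, which encodes an ammonium transporter, had a single site, with a fold of 6.35 (5.35 to 7.48) at chr3:88296110-88297945. Its summit was 42664 bp beyond the gene and inside Cct3, a chaperonin subunit gene. Rhbg is therefore the one gene of the 9 with no site when each summit counts only for its nearest gene. With a reach of 10 kb it is also the one without a site.

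Lect2 encodes a secreted protein made by hepatocytes. It had 6 sites and none inside the gene. The strongest, at chr13:56547119-56551399, covered the promoter shown above, with its summit 2279 bp before the start and a fold of 13.3 (11.9 to 14.9). Of the others, 4 lay on the same side, where summits at 8554, 12497, 23397 and 40233 bp before the start had folds of 6.49, 10.0, 8.33 and 4.37, and the last was nearer to Tgfbi. The site on the other side, in Fbxl21 and 7215 bp beyond the end of Lect2, had a fold of 4.83.

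**Figure D2:**
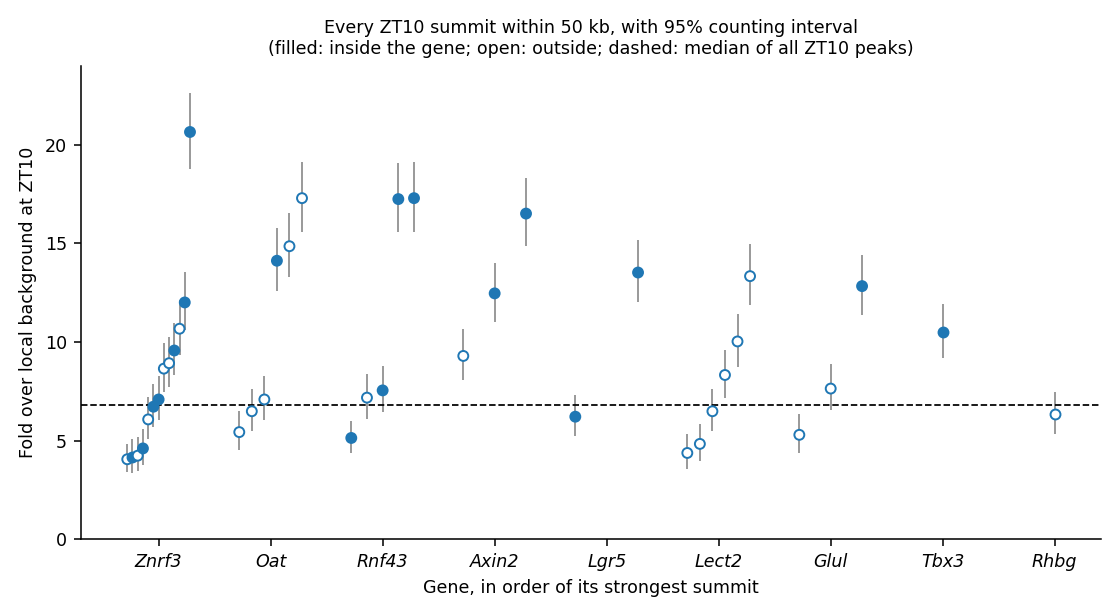
Fold of all 40 ZT10 sites by gene (points), with 95% counting intervals (grey bars); filled points lie inside the gene, open points outside, and the dashed line is the median of all ZT10 peaks, 6.81. The strongest sites of Znrf3, Rnf43, Axin2, Lgr5, Glul and Tbx3 are filled, and those of Oat, Lect2 and Rhbg are open.

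In order of the strongest fold the genes ran Znrf3 (20.6), Oat and Rnf43 (17.3 each), Axin2 (16.5), Lgr5 (13.5), Lect2 (13.3), Glul (12.8), Tbx3 (10.5) and Rhbg (6.35). Counting intervals of neighbours in this order overlapped for 7 of the 8 pairs, and only Tbx3 and Rhbg were apart. Strongest fold was above the median of all genes with a site, 10.0, at 8 of the 9, and the median of the 9 was 13.5. By this measure the next genes above Znrf3 were Snx2 and Snx24, which share a site of fold 20.7, and the next below were Etfa and Isl2, which share one of 20.6. A further 8 genes had the same strongest fold as Znrf3. This likeness rests on 1 value in 1 list.

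Over the 40 sites the median fold was 7.98 (quartiles 6.18 and 12.6), against 6.81 over all ZT10 peaks and 6.76 over the 24936 peaks within 50 kb of any protein-coding gene. Folds above 10 were held by 15 of the 40 sites, or 37.5%, against 26.98% of the list. Peaks wider than 4 kb numbered 11, or 27.5%, against 13.3% of the list. Wider peaks had higher folds, with a Spearman rho of 0.73 across the 40 sites and 0.77 across the whole list. Both are given as a description, since width and fold come from the same signal, and none of these differences was tested.

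Share and number of sites have to be read against all genes, since 70.5% of protein-coding genes had a ZT10 site within 50 kb. Within the gene span alone 7 of the 9 had a site (36.2% of all genes), within 10 kb 8 of the 9 (54.5%) and within 100 kb all 9 (78.6%). The 9 had a median of 3 sites per gene, against 2 over all genes. Windows differ in length with the span, and per 100 kb of window the 9 genes together had 2.89 sites, against 1.98 over all genes. Lect2 (5.05), Oat (5.05) and Znrf3 (4.84) were highest, and Lgr5 (0.842), Tbx3 (0.876) and Rhbg (0.894) were below the median of all genes, 1.60.

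**Figure D3:**
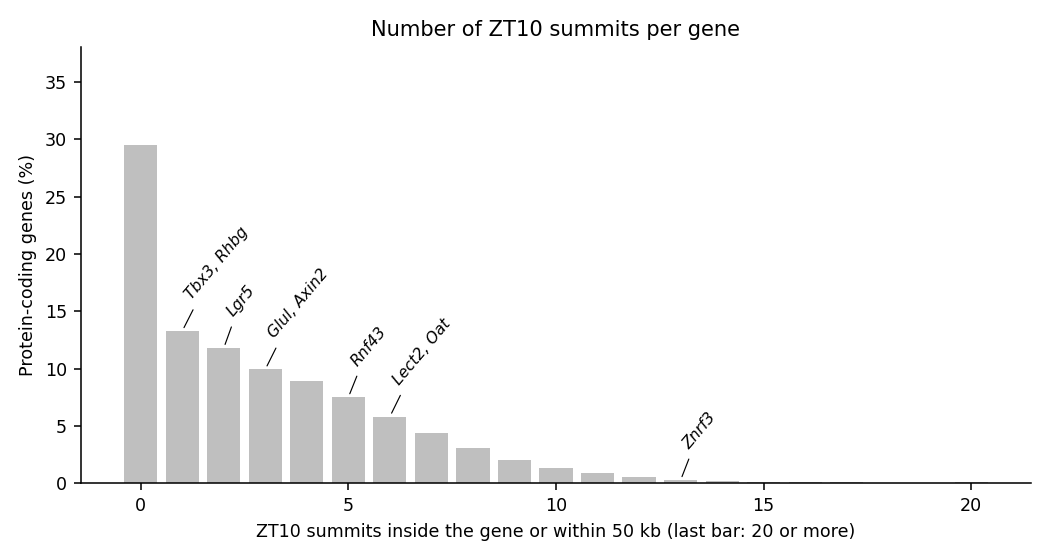
Share of the 21631 protein-coding genes (vertical axis, percent) by number of ZT10 summits inside the gene or within 50 kb (horizontal axis), with the 9 genes marked at their number. Znrf3, with 13, stands far to the right of the others, which have 1 to 6.

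Placement is given by role, for the 5 signalling genes (Lgr5, Rnf43, Znrf3, Axin2 and Tbx3) and the 4 genes of metabolism or secretion (Glul, Rhbg, Oat and Lect2), a grouping made after the values were seen and not tested. Of the 24 sites of the first group 16 lay inside the gene, 7 of them in Znrf3, and of the 16 sites of the second 2 did. Gene spans make up 46.0% of the windows in the first group and 12.9% in the second. Per 100 kb, the signalling genes had 3.76 sites inside the spans and 1.60 outside, and the others 3.37 and 3.5. Znrf3 also held 6 of the 8 outside sites of the signalling genes, and the 3.37 rests on 2 sites. Over all 9 genes, 18 of 40 summits (45.0%) were inside the gene they were counted for, whose spans make up 35.0% of the windows. Of all ZT10 summits 59.4% lay in some protein-coding gene. That is a wider measure than the 45.0%, since sites outside their own gene can lie in another, as in Lhpp and Cct3. Sites inside had a median fold of 11.2 and those outside 7.13. The same split is not given here for all genes, so whether this gap is particular to the 9 was not tested. Neighbouring summits of the same gene were 555 to 53742 bp apart, with a median of 10900 bp.

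At ZT22 none of the 9 genes had a site within 50 kb, nor within 100 kb. Only 34 of the 21631 genes, or 0.157%, had one within 50 kb, so 0 of 9 is what this short list gives for most genes. A fold of 4 corresponds to about 80.3 fragments at the lowest local background of the ZT22 pool, whose depth relative to ZT10 was 0.97, provided that both were called against one control. A weaker summit at ZT22 would not be listed, and the filter that removed some numbered peaks is not known. The absence is therefore not a value of 0, and it sets no firm limit on the signal.

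The other genes of the pathway and of liver zonation were read in the same way, from lists chosen with earlier results of these data known. Of 16 WNT ligand, secretion and receptor genes, 12 (75%) had a ZT10 site within 50 kb, with a median strongest fold of 11.7. The fold is a median over those 12 only. Both values are near the 70.5% of all genes and the 10.0 of all genes with a site. The co-receptor gene Lrp5 was highest, with 18 sites and a fold of 52.2 at a summit 9042 bp outside the gene, followed by Lrp6 (17.5, nearer to Mansc1) and the Frizzled gene Fzd7 (14.8). Among the ligands of the central vein, Wnt9b had a site of fold 14.4 inside the gene, and Wnt2 and Rspo3 had none, as did Rspo1 and Fzd6. Wls, which encodes the WNT secretion factor, was the one gene of all these lists with a ZT22 site, with a fold of 5.66 in that list and 4.24 at ZT10. These folds come from lists of very different length and are not compared as a change. Whether both summits lie at the same place is not given here.

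Of 20 genes of the β-catenin complex and its nuclear partners, 19 (95%, against 70.5% of all genes) had a site, all but Amer1. The strongest folds of those 19 had a median of 8.51, lower than the 10.0 of all genes with a site. With genes lacking a site placed lowest, 8.51 was at percentile 57.8 of all genes. Bcl9l, a β-catenin coactivator gene, had 27.4 inside the gene, while the strongest sites of Gsk3b (21.6) and Lef1 (20.2) were nearer to Nr1i2 and Hadh. Of 10 feedback and inhibitor genes 9 (90.0%) had a site, all but Dkk1. The median over those with a site was 7.64, also below 10.0. On the same scale of all genes, 7.64 was at percentile 53.6. Dkk3 (28.03), Tle3 (27.3) and Notum (17.4, nearer to Mafg) were strongest.

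Zonated genes were taken mostly from metabolism, though the periportal list also holds Sox9 and Cdh1. They had a site at 20 of 20 for pericentral and 20 of 20 for periportal genes, against 70.5% of all genes. Their median strongest folds were 20.2 and 20.02, both above the 13.5 of the 9 WNT genes. Ces1d (32.8), Cyp2e1 (31.8) and Aldh1a1 (24.95) led the pericentral list, which also holds Lhpp, and Serpina12 (32.8), G6pc (29.4) and Hal (26.01) the periportal one. The strongest sites of Ces1d and Cyp2e1 were nearer to Ces1e and Olfr541. Markers of other liver cells were read as well. Endothelial markers had a site at 9 of 13 (69.2%, against 70.5% of all genes), with none at Ehd3, Kdr, Tek and Thbd. The median strongest fold of the 9 markers with a site was 13.1, near the 13.5 of the WNT genes, all of which had one. With the 4 others placed lowest, the middle marker of the 13 was Pecam1, with 9.84. Stab2 (24.2), Gpr182 (22.3) and Dnase1l3 (16.9, nearer to Abhd6) were highest. Kupffer cell markers had a site at 4 of 14 (28.6%), with a median strongest fold of 7.41 over those 4 only. They were led by Folr2 (11.6), Cd68 (8.003) and Lyz2 (6.81), each with its strongest site nearer to another gene.

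**Figure D4:**
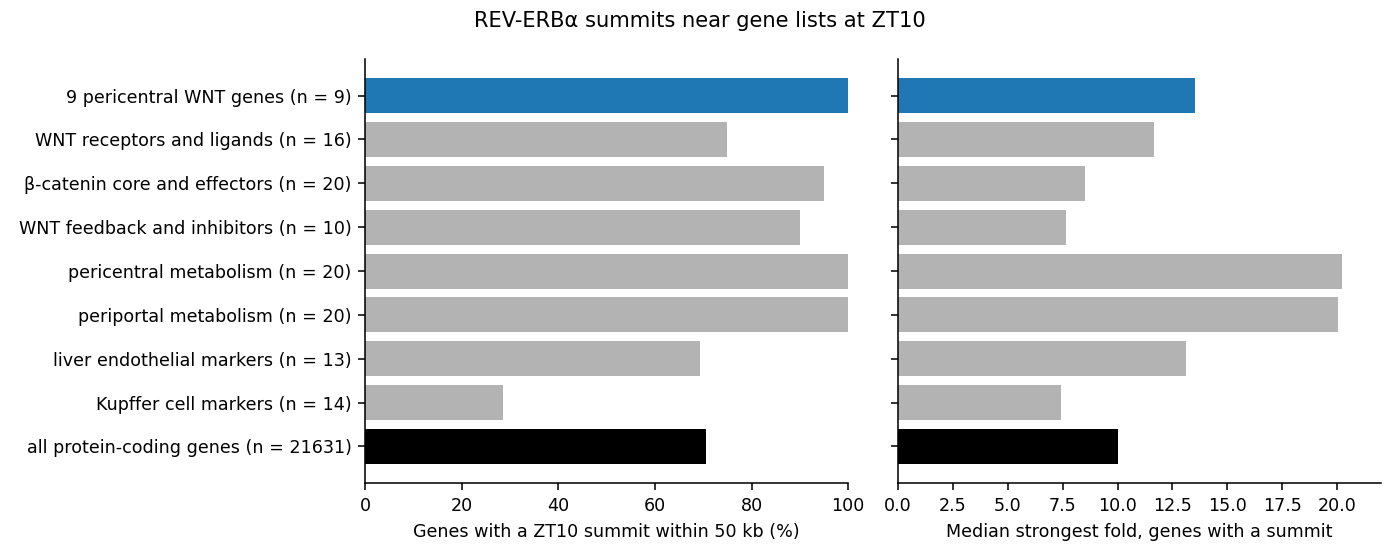
Share of genes with a ZT10 summit within 50 kb (left, percent) and median strongest fold among genes with a summit (right), for the 9 genes (blue), the other lists (grey) and all protein-coding genes (black). Pericentral and periportal metabolism both reach 100% with medians of 20.2 and 20.02, above the 9 genes at 13.5.

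The limit of 50 kb leaves out strong summits. Between 50 and 100 kb lay 34 further sites with a median fold of 9.73, and 3 of them had one of the 9 as the nearest gene. One was 76173 bp beyond Glul, at chr1:153984023-153993970, with a width of 9948 bp and a fold of 25.2, which is above any site within 50 kb of the 9 genes. Another, of fold 4.099, lay 88152 bp beyond Glul. The third lay 95206 bp on the lower-coordinate side of Tbx3, at chr5:119573823-119582453, with a fold of 33.5. The strongest summits of Axin2 (27.8), Lect2 (22.2), Oat (20.96) and Rhbg (13.1) at that reach lay inside Cep112, Slc25a48, Lhpp and Mef2d. The values of Znrf3, Rnf43 and Lgr5 did not change with the wider reach.

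**Figure D5:**
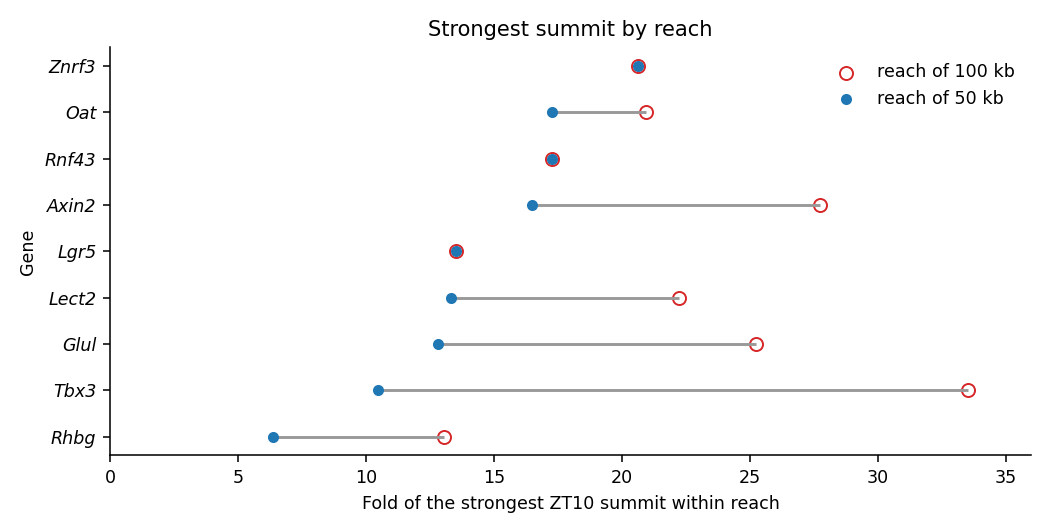
Fold of the strongest ZT10 summit of each gene with a reach of 50 kb (blue points) and of 100 kb (open red points). The values of Znrf3, Rnf43 and Lgr5 coincide, and Tbx3 moves the most, from 10.5 to 33.5.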

How the data were processed

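Peak lists of anti-HA ChIP-seq at ZT10 and ZT22 were used, each pooled by the authors over 4 samples, per the labels. MACS2 2.1.2, BWA 0.7.17, SAMtools 1.9, Picard 2.18.12, cutadapt 2.3, deepTools 3.3.0, bcl2fastq 2.17 and the build mm10 are named in the submitters' processing notes, with no role or order. Which control library was used was not stated in these sources. The deposited fold is a ratio of signal at a summit over its local background. It stands beside a −log10 p and a score in the deposited lists, and the score is 10 times the −log10 q without decimals. Summit offsets are in bp. Peak numbers run to 50041 at ZT10 and 78 at ZT22, so not every numbered peak is listed.

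Genes and promoters came from RefSeq tables of GRCm38.p6, without a genome sequence. Pileup and local background were solved from fold and −log10 p, with a pseudocount of 1. The lowest background was 4.14 at 87.0% of ZT10 peaks and at 38 of the 40 sites, and 1 fragment was worth 0.236. Fragment counts away from it are approximate. Intervals are exact Poisson at 95%. Scripts ran in Python 3.11.15 with scipy 1.17.1 and were tested on simulated data. Members and gene lists were chosen with earlier results of these data known. All 9 members are named, with the 3 strongest genes of each other list, those without a site where 5 or fewer, nearest genes of sites, and the 2 genes on either side of the strongest member. Alternatives were other reaches, limits on −log10 q or fold, merged summits and the nearest gene only.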

Additional observations from a re-analysis of the deposited data

How the results depend on the processing

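No paired analysis was possible because each time has 1 pooled peak list, and for the same reason no replicate could be left out. The number of sites was 74 with a reach of 100 kb and 18 in gene spans only, by the construction of these windows, and 29 to 40 under the other alternatives. Their median fold was 11.2 in gene spans only and 7.54 to 9.57 otherwise. Members with a site numbered 7 to 9 and ZT22 sites 0 throughout the reaches. The share of all genes was 54.5% at 10 kb, 78.6% at 100 kb and 36.2% in spans only. With 1 site per interval or summits within 500 bp merged the number of sites was 40, since no summits were that close. No summit with a fold below 4 is listed at either time, and the sources used here do not give the filter behind that limit. Fragment counts set the precision of each fold.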

Other observations

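The stretch of 75793 bp between Znrf3 and Xbp1 held 10 ZT10 sites, or 13.2 per 100 kb, with folds of 4.06 to 15.7, against 1.98 per 100 kb over the windows of all genes. Within Xbp1 itself there was 1 site, with a fold of 7.77. This stretch was chosen after its values were seen.

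Some genes beside or overlapping the 9 also held sites inside their spans, again noted after the values were seen. Lhpp, next to Oat, had 6 in 95806 bp with a median fold of 16.1 and a strongest of 20.96. Slc25a48, on the lower-coordinate side of Lect2, had 6 in 34408 bp with a strongest of 22.2. Cep112, next to Axin2, had 7 in 435401 bp with a strongest of 27.8. Mef2d, near Rhbg, and Tgfbi, near Lect2, had 2 each. Fbxl21, whose span overlaps that of Lect2, and Cct3 had 1 each. Supt4a, next to Rnf43, had no summit inside, though the peak of fold 7.18 beyond Rnf43 reaches into its span. Which of these neighbouring genes, if any, the sites act on was not tested.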
